A study of Mus musculus with 3 samples.

Results

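The MYC, MAX and MXD network is a set of transcription factors that bind the same short DNA element as pairs. It was followed here through 10 genes taken by name from the deposited table: Myc, Mycn, Max, Mxd1, Mxd3, Mxd4, Mxi1, Mnt, Mlx and Mga. All 10 of the 10 names had a row, among 16977 genes in the table, and none was absent. The set was drawn up with the shPHF2 and shControl values known, among them the higher Mxd4 value, so the members' own differences are a description: no p-value is given for them, and calls among them are counted once, beside the share over all genes. The RNA came from mouse neural stem cells (NSCs), the dividing progenitors of the embryonic brain, of C57BL/6J mice at stage E12.5, cultured in EGF at 20 ng/ml and FGF at 10 ng/ml. The shPHF2 group has 2 libraries, replicates 1 and 2, of cells infected with a lentivirus carrying a short hairpin RNA against Phf2, which encodes a histone demethylase of the KDM7 family. The shControl group is 1 library of cells that received a lentivirus with a control hairpin, so its error could not be estimated. Genotype, culture and viral delivery are the same in both groups as far as the labels go, and the labels do not say whether more than 1 hairpin sequence was used.

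MYC proteins are activators that act only when paired with MAX, through a basic helix-loop-helix leucine zipper, and the pair binds the E-box CACGTG near genes of growth and division. The MXD proteins (MXD1, MXD3, MXD4 and MXI1) and MNT pair with MAX too, bind the same E-box and recruit the SIN3 corepressor with its histone deacetylases. In neural progenitors MYC and MYCN are known for keeping cells growing and dividing, whereas most MXD genes are switched on as cells leave the cycle and mature. Mxd3 is the exception, a member known in mouse for its expression in progenitors that are still dividing.

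Levels are given as normalised reads, in which each library's counts were scaled by its own size factor. The 3 libraries had 37171026, 26302177 and 32898139 reads in genes, for shPHF2 replicate 1, shPHF2 replicate 2 and shControl. Phf2 itself stood at 985 and 714 normalised reads in the shPHF2 libraries, against 2593 in shControl, so the shPHF2 mean was 32.8% of the control. Of 12 neural stem cell markers all 12 were detected in the 3 libraries, among them Nes and Sox2, with 8819 to 10114 normalised reads of Sox2 in shPHF2 and 5893 in shControl. Sox2 was the 1 gene of this list that limma called, as higher, while edgeR called 0 and DESeq2 3 as higher. Both shPHF2 libraries were above the control in 4 of the 12 and below it in 5, as in 41.4% and 41.8% of all genes tested. The median log2 difference of the 12 was -0.07. Of the markers of other brain cells, 1 of 6 astrocyte genes passed the test, S100b, at 1094 and 849.98 normalised reads in shPHF2 against 331 in shControl, and Aqp4 had 6.67 and 37.4 against 0. Of the 6 astrocyte genes 4 were above the control in both shPHF2 libraries, and the median log2 difference of the list was 1.48. Their summed level was 6723 to 7418 in shPHF2 and 9103 in shControl, most of it from Gja1 and Aldoc, which had lower values in shPHF2. The summed neuronal markers were 43216 to 46395 in shPHF2 and 64115 in shControl. Map2 gave most of this, at 37935 and 38518 in shPHF2 and 60020 in shControl. Of 7 tested neuronal genes limma called 0, with 1 higher and 1 lower at an unadjusted p under 0.05. edgeR called 0 and DESeq2 1. Across the 7 genes the median log2 difference was 0.33, yet the medians of the single shPHF2 libraries were negative (-0.11 and -0.25). Both shPHF2 libraries were above the control in 1 gene, Tubb3 (198 and 346 against 104), and below it in 3. The summed oligodendrocyte lineage markers were 26618 to 31178 in shPHF2 and 32114 in shControl, with Mog at 0 in 1 shPHF2 library. Most of that sum was Olig2, at 24241 and 29091 in shPHF2 and 29320 in shControl. All 5 tested genes of the list were below the control in both shPHF2 libraries, with a median log2 difference of -0.79, and 0 were called. The summed markers of microglia, endothelium, fibroblasts and erythroid cells were 44.6 to 1071 in shPHF2 and 113 to 1657 in shControl. Only 3 of 8 microglial, 5 of 6 fibroblast and 2 of 6 erythroid marker names had a row. Most of the fibroblast sum was Fbln1, at 1057 and 687 in shPHF2 and 1650 in shControl. The endothelial marker Cldn5 was at 0 in both shPHF2 libraries and the microglial marker Aif1 at 0 in shControl. The part of these cell markers in the values that follow was not tested, and in RNA from whole cultures fewer cells of a type cannot be told apart from less RNA per cell.

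Mxd4 was the member with the largest difference between the groups. Its locus, on the minus strand of chromosome 5, spans 34173883 to 34187720 in GENCODE M21 (GRCm38), and the protein is a MAX-pairing repressor linked to differentiation. It had 5494 and 5704 normalised reads in the shPHF2 libraries, against 913 in shControl. Both shPHF2 libraries stood far above the control and close to each other, 0.05 apart on the log2 scale. The shPHF2 mean was 5599 ± 148 (SD, n = 2), a 6.13-fold higher level, and the log2 difference was 2.61 with a standard error of 0.17 (limma). Of 14148 genes tested, 187, or 1.32%, had a log2 difference at least as large, Mxd4 included. Among the 1903 genes with a mean at least as high as that of Mxd4 it was the 1 gene with so large a difference. That mean is over the 3 libraries and is itself raised by the shPHF2 values of Mxd4, so nothing is read from this rank.

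Mxd1, a repressor that replaces MYC on MAX during terminal differentiation, was the other member with a several-fold difference. Its locus spans 86647042 to 86669161 on chromosome 6, minus strand. It had 404 and 375 normalised reads in shPHF2, against 93.7 in shControl. The groups were well apart and the shPHF2 libraries nearly level, with a mean of 390 ± 20.8 (SD, n = 2), 4.16-fold the control, and a log2 difference of 2.04 with a standard error of 0.31 (limma).

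The promoters of these 2 genes are shown because they are the pair that stood higher together. Each is the 250 bases before the RefSeq start (GRCm38.p6), 5′ to 3′ along the gene, for Mxd4 chr5:34187711-34187960 and for Mxd1 chr6:86669160-86669409, both on the minus strand. Capitals mark the E-box CACGTG and the CCAAT box, which was searched on both strands (CCAAT or ATTGG).
Mxd4: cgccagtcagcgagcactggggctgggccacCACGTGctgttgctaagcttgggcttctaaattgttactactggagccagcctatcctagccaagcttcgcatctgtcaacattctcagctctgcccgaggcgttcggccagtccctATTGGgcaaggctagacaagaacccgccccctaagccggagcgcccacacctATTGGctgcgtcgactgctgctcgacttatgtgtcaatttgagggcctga
Mxd1: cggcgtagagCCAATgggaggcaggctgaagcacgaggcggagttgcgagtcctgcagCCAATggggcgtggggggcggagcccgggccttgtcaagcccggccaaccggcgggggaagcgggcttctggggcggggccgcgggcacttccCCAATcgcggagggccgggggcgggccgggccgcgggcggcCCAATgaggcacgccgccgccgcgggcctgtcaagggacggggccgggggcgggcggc
The Mxd4 window held 1 CACGTG, whose first base lies 219 bases before the start, and 2 CCAAT boxes, at 102 and 50 bases. The Mxd1 window held 0 CACGTG and 4 CCAAT boxes, at 240, 192, 99 and 58 bases before the start. The promoter table had windows for 9 of the 10 members, all but Myc, and 3 of the 9 held a CACGTG in these 250 bases (Mxd4, Mnt and Mlx), against 6.86% of the 26994 genes in the table and 9.75% of the 10280 tested genes that matched it. Since 10280 of 14148 tested genes is too low a share for a check over all of them, these are given as a description. The CCAAT box stood in 3 of the 9 (Mxd4, Mxd1 and Mlx), against 37.5% of the genes in the table and 40.4% of the tested genes that matched it. The E-boxes of the other members are shown with the bases around them, for Mnt (chr11:74830781-74830826, plus strand), Mlx (chr11:101087230-101087275, plus strand) and Max (chr12:76962226-76962271, minus strand), with CACGTG in capitals.
Mnt: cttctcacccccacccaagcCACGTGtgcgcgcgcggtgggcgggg
Mlx: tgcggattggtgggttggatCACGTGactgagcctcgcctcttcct
Max: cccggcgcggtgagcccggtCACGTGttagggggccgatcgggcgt
The E-box starts 123 bases before the start of Mnt, 40 before that of Mlx and 3 before that of Max, where it runs across the start and so was not counted among the 3. A match of letters is a description of the window and does not show that a factor binds there.

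The remaining repressors differed less, and not in the same direction. Mxi1, which encodes a MAX-pairing repressor of the MXD family, had 1050.5 and 891 normalised reads in shPHF2, against 585 in shControl. Both shPHF2 libraries were above the control, with a mean of 971 ± 113 (SD, n = 2) and a log2 difference of 0.72 (standard error 0.22). Mnt, the broadly expressed repressor of the network, had 790.3 and 710.1 normalised reads in shPHF2 and 565 in shControl, a log2 difference of 0.41 (standard error 0.23). Mxd3 was the 1 repressor with lower values, at 556 and 365 normalised reads in shPHF2, against 854 in shControl. Its groups did not overlap, but the shPHF2 libraries were further apart than for any other member, by 0.60 on the log2 scale. Its log2 difference was -0.92 with a standard error of 0.30, from -0.62 in replicate 1 and -1.22 in replicate 2. Mxd3 overlaps Prelid1 on the opposite strand, and Prelid1 had 4061 and 4424 normalised reads in shPHF2 and 3328 in shControl. The sources used here do not give whether counting used the strand, so reads of such overlapping pairs are uncertain.

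**Figure D1:**
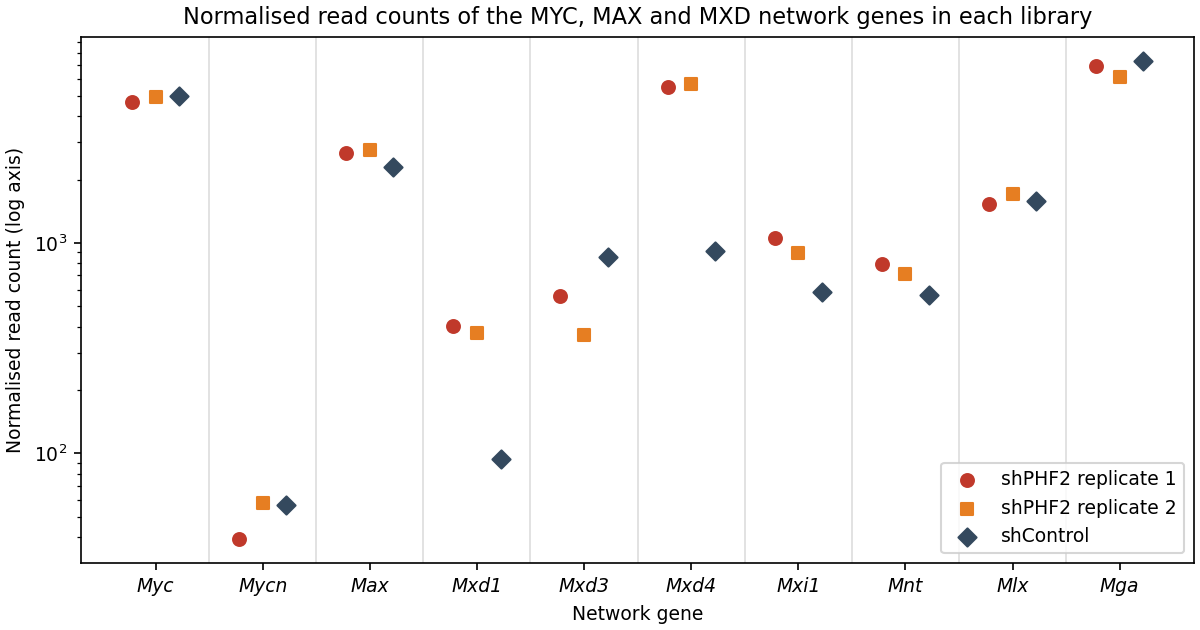
Normalised read counts on a log axis for the 10 network genes, with 1 point per library (shPHF2 replicate 1, shPHF2 replicate 2, shControl). Mxd4 reads 5494 and 5704 in shPHF2 against 913 in shControl and Mxd1 404 and 375 against 93.7, while the 3 points of Myc lie between 4692 and 4977.

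The activators did not share this difference. Myc, on chromosome 15 from 61985391 to 61990374, had 4692 and 4937 normalised reads in shPHF2, against 4977 in shControl. The 3 libraries were nearly level, the shPHF2 mean was 4815 ± 173 (SD, n = 2), or 96.7% of the control, and the log2 difference was -0.05 with a standard error of 0.17. Mycn, the MYC gene best known from the embryonic nervous system, was barely detected, with 39.2 and 57.9 normalised reads in shPHF2 and 56.8 in shControl. The control lay between the shPHF2 libraries, and with 47, 48 and 57 reads in shPHF2 replicate 1, shPHF2 replicate 2 and shControl the standard error, 0.57, was larger than the log2 difference of -0.25. Max, the partner that both activators and repressors need, had 2685 and 2750.1 normalised reads in shPHF2, against 2288 in shControl. Both shPHF2 libraries were slightly above the control, with a log2 difference of 0.25 (standard error 0.17).

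Mlx, the MAX-like partner of the glucose-sensing MONDO factors and of several MXD proteins, had 1532 and 1698 normalised reads in shPHF2 and 1573 in shControl. The control lay between the shPHF2 libraries. Mlx overlaps Psmc3ip on the opposite strand, which fell to 303 and 335 normalised reads in shPHF2, against 676 in shControl (log2 difference -1.08, standard error 0.26; limma, adjusted p = 0.034). Mga, a MAX partner with an added T-box domain that is part of a Polycomb complex, had 6905 and 6156 normalised reads in shPHF2, against 7341 in shControl. Both shPHF2 libraries were a little lower, with a log2 difference of -0.17 (standard error 0.18).

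Over the set, the median log2 difference was 0.14, against -0.01 for all 14148 genes tested. The members ran from -0.92 for Mxd3 to 2.61 for Mxd4, and Mxd4 stood 2.58 above the median of the other 9 members, 0.04. All 10 members passed the filter of a mean of at least 10 normalised reads. Of the 10, 2 passed the test over all genes (limma with trend, adjusted p under 0.05 by Benjamini-Hochberg), Mxd4 and Mxd1, both higher, where 14.3% of all genes passed and 7.22% passed as higher. In 5 members both shPHF2 libraries were above the control, as in 41.4% of all genes, in 3 both were below, as in 41.8% of all genes, and in 2 the control lay between. Since the set was chosen on this contrast, nothing is read from these counts. With no filter on low values, without the trend, or with quantile normalization limma called 0 members, as it called 0 of all genes, while edgeR and DESeq2 called the same 2. The authors' deposited table gives log2 fold changes of 2.62 for Mxd4, 2.06 for Mxd1 and -0.05 for Myc.

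**Figure D2:**
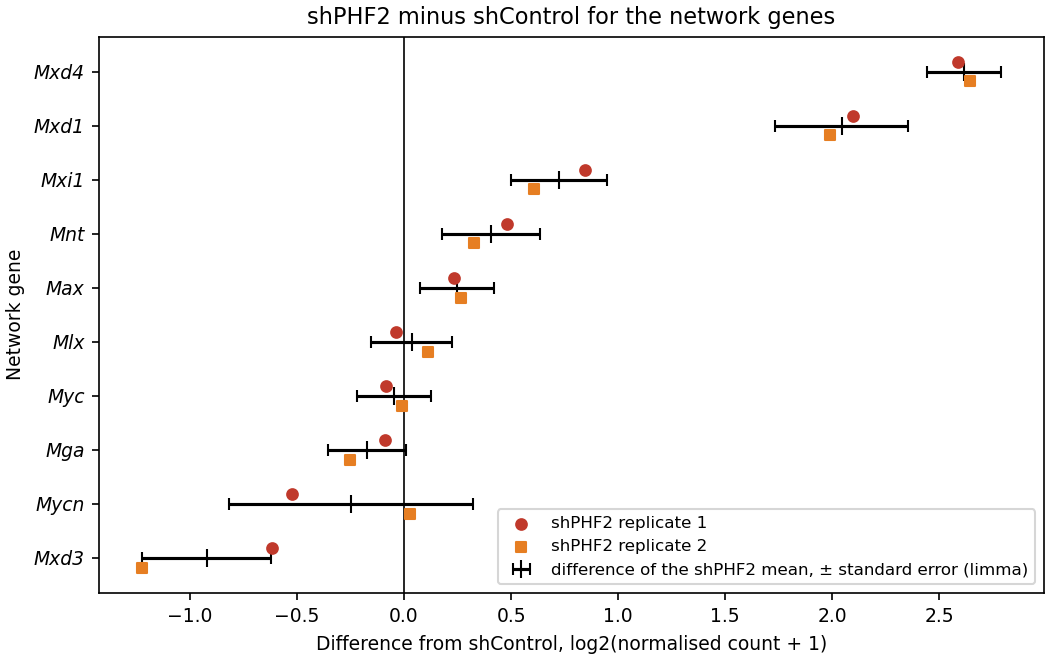
Difference of each network gene from shControl in log2(normalised count + 1), ordered from the highest at the top. Circles and squares are shPHF2 replicates 1 and 2, and the bars give the difference of the shPHF2 mean with its limma standard error. Mxd4 at 2.61 and Mxd1 at 2.04 stand clear of the other 8 genes, which lie between -0.92 and 0.72.

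To compare genes with each other, normalised reads were divided by the length of annotated exon, in kilobases (kb). On this per-kb scale Myc was the most abundant member in every library, at 1727 and 1817 reads per kb in shPHF2 and 1832 in shControl, far above Mycn, at 11.9 and 17.6 in shPHF2 and 17.2 in shControl. Mlx and Max followed in each library. Mxd4 had 648 and 672 reads per kb in shPHF2, against 108 in shControl, which placed it at rank 4 of the 10 in both shPHF2 libraries, above Mga, and at rank 7 in shControl. Mga had 450.1 and 401 reads per kb in shPHF2, so the shPHF2 values of these 2 neighbours in the order did not overlap, whereas those of Mxd3 (235 and 154), Mnt (171 and 153) and Mxi1 (154 and 131) did. Mxd1 was low in every library, at 57.2 and 53.0 reads per kb in shPHF2 and 13.2 in shControl.

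The makeup of the repressor transcripts differed accordingly. Per kb, Mxd4 made up 51.2% and 57.8% of the summed Mxd1, Mxd3, Mxd4, Mxi1 and Mnt reads in shPHF2, against 15.6% in shControl. Mxd3 made up 18.6% and 13.3% in shPHF2, against 52.3% in shControl. Per kb the leading repressor transcript was thus Mxd4 in both shPHF2 libraries and Mxd3 in shControl. The shControl order rests on the division by exon length, since before it Mxd4 had 913 normalised reads there and Mxd3 854, and the reads of Mxd3 are uncertain where it overlaps Prelid1. The summed repressors came to 1264 and 1164 reads per kb in shPHF2, against 689 in shControl, while Myc and Mycn together came to 1739 and 1835 in shPHF2 and 1849 in shControl. The ratio of repressor to activator reads per kb was 0.727 and 0.634 in shPHF2, against 0.373 in shControl. Without Mxd4 that ratio was 0.355 and 0.268 in shPHF2 and 0.315 in shControl, so the control then lay between the shPHF2 libraries. Exon length is the union over annotated transcripts, and the transcripts used in these cells may be shorter.

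**Figure D3:**
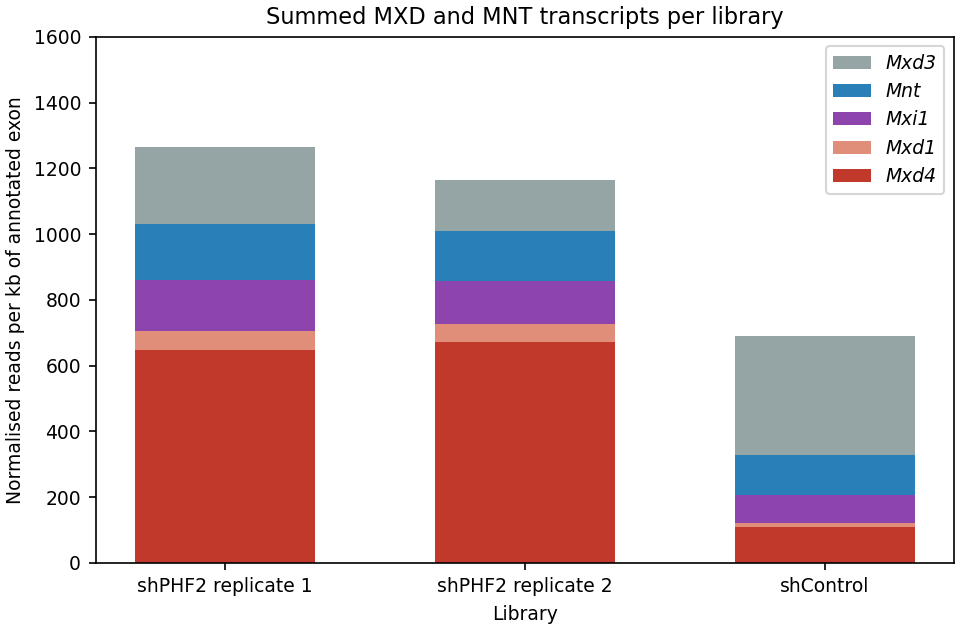
Stacked bars of normalised reads per kb of annotated exon for Mxd4, Mxd1, Mxi1, Mnt and Mxd3 (bottom to top) in shPHF2 replicate 1, shPHF2 replicate 2 and shControl. The bars reach 1264 and 1164 in shPHF2 and 689 in shControl, and Mxd4 fills 51.2% and 57.8% of the shPHF2 bars against 15.6% of the shControl bar.

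Genes beside Mxd4 on the chromosome were examined by position alone, a rule added after the members' values were known. Of the 8 nearest tested genes, 4 on each side, 0 were called (limma), and their log2 differences ran from -0.41 to 0.83. Zfyve28, the nearest before the Mxd4 start, had 171 and 169 normalised reads in shPHF2 and 167 in shControl. Haus3, the nearest on the other side, had 2133 and 1705 normalised reads in shPHF2 and 2542 in shControl, a log2 difference of -0.41 (standard error 0.20). Around Mxd1, 1 of the 8 nearest passed, Anxa4, the gene of an annexin, whose start lies 124 kb away. Anxa4 rose to 184 and 251 normalised reads in shPHF2, against 58.8 in shControl (log2 difference 1.85, standard error 0.40; limma, adjusted p = 0.023). Of the 80 neighbours of the 10 members, 6 passed as higher and 3 as lower, where 7.22% and 7.11% of all genes tested did.

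**Figure D4:**
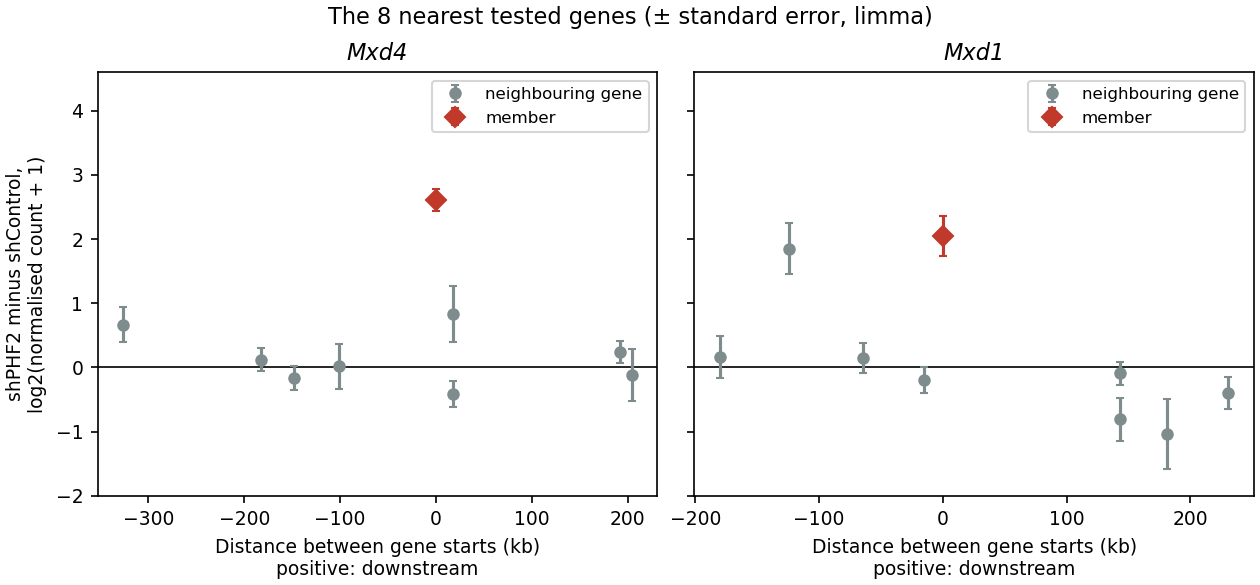
Difference between shPHF2 and shControl in log2(normalised count + 1), with limma standard errors, for Mxd4 (left) and Mxd1 (right), drawn as diamonds, and for the 8 nearest tested genes, drawn as circles, by the distance between gene starts in kb. The neighbours of Mxd4 lie between -0.41 and 0.83, and Anxa4 at 1.85 is the high point near Mxd1.

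Among 8848 other genes with a mean of at least 500 normalised reads, the 5 whose differences in the 2 shPHF2 libraries lay nearest to those of Mxd4 were Hspb8, Efnb2, B3galt5, Tmem108 and Camk1d. Hspb8, a small heat shock protein gene, was the closest, at 1055 and 1098 normalised reads in shPHF2 and 162 in shControl, 0.15 away on the log2 scale over the 2 differences. Efnb2, which encodes the ligand ephrin-B2, had 3128 and 3390.3 normalised reads in shPHF2 and 603 in shControl, 0.26 away. These likenesses rest on 3 libraries. The cut of 500 takes in the shPHF2 values. Hspb8, B3galt5, Tmem108 and Camk1d, at 162, 199, 248 and 314 normalised reads in shControl, passed it only through their higher shPHF2 values.

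The relatives, cofactors, regulators and targets of the network were read from lists that did not include the members. Of 171 tested genes in 9 lists, 7 rose and 58 fell, or 4.09% and 33.9%, against 7.22% and 7.11% of all genes tested (limma, adjusted p under 0.05). Of these falls, 23, 16 and 11 were in the lists of MYC-activated genes, which held 35, 35 and 19 tested genes. The shares over all 9 lists therefore do not describe the partners and cofactors alone. The median log2 difference of these 171 genes was -0.48, against -0.01 over all genes tested. At an unadjusted p under 0.05, 4414 of all 14148 genes tested passed in either direction (limma). The unadjusted counts given for each list below are to be read beside that number, and are not by themselves a difference from all genes. The 0 calls of limma with no filter on low values, without the trend or with quantile normalization hold for these lists too, with 89, 70 and 85 of their genes at an unadjusted p under 0.05.

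Among relatives and partners of the network outside the 10 members, 2 of 8 rose and 1 fell. Mitf, known as the regulator of pigment cells, rose to 400.2 and 486 normalised reads in shPHF2, against 161 in shControl (log2 difference 1.44, standard error 0.30; limma, adjusted p = 0.021). Tfe3, a relative that drives lysosomal genes, rose to 1975 and 1986, against 1131 in shControl (limma, adjusted p = 0.027). Tfap4, known in human cells as a direct MYC target, fell to 180.1 and 162 normalised reads in shPHF2, against 461 in shControl (log2 difference -1.43, standard error 0.32; limma, adjusted p = 0.025). Mlxip, the MONDO partner of MLX, had 1360 and 1115 normalised reads in shPHF2 and 1241 in shControl, so the control lay between the shPHF2 libraries.

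Of 19 SIN3 and histone deacetylase complex genes, the corepressor that MXD proteins recruit, 1 fell and 0 rose (limma; 5 lower and 1 higher at an unadjusted p under 0.05, and 1 lower and 0 higher by edgeR and by DESeq2). The 1 fall was 5.26% of the list, against 7.11% of all genes tested. The median log2 difference of the 19 genes was -0.29. In 14 of the 19 both shPHF2 libraries were below the control, as in 41.8% of all genes tested. In 3 both were above, as in 41.4% of all genes tested. The scaffold gene Sin3a had 4353 and 3952 normalised reads in shPHF2 and 5075 in shControl, and Sin3b had 4107 and 4320 in shPHF2 and 3197 in shControl, neither called. Brms1l, a subunit of the complex, fell to 947 and 878 normalised reads in shPHF2, against 1738 in shControl (log2 difference -0.93, standard error 0.20; limma, adjusted p = 0.023).

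Of 15 MYC coactivators, 2 fell and 0 rose (limma; 4 lower at an unadjusted p under 0.05, 3 lower by edgeR and 2 by DESeq2, with 0 higher in each). The genes called by limma were the partner ATPases of chromatin complexes, Ruvbl1, at 321 and 301 normalised reads in shPHF2 against 654 in shControl, and Ruvbl2, at 1741 and 1997 against 3356 (log2 differences -1.07 and -0.85; limma, adjusted p = 0.035 and 0.025). Of 16 genes that set the stability of MYC protein, 1 fell and 0 rose (limma; 3 lower and 1 higher at an unadjusted p under 0.05, and 1 lower and 0 higher by edgeR and by DESeq2). The gene that fell was Skp2, a ubiquitin ligase subunit known in human cells to act on MYC, at 2165 and 1740 normalised reads in shPHF2 against 5490 in shControl. Fbxw7, the ligase subunit that marks MYC for degradation, had 2947 and 3344 normalised reads in shPHF2 and 2407 in shControl and did not pass. In the Polycomb complex of MGA and MAX, 3 of 10 genes fell and 0 rose (limma; 3 lower at an unadjusted p under 0.05 and by edgeR, 2 by DESeq2, with 0 higher in each). They were the heterochromatin protein gene Cbx3, at a log2 difference of -1.15, the E2F partner gene Tfdp1, at -0.90, and L3mbtl2, at -0.72, which DESeq2 did not call (adjusted p = 0.054).

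The lists of genes known to be activated by MYC held most of the listed genes that fell. Of 35 genes for the nucleolus and ribosome making, 23 fell and 0 rose (limma; 30 lower and 0 higher at an unadjusted p under 0.05, and 0 higher by edgeR and by DESeq2). Their median log2 difference was -0.85, with -0.86 in replicate 1 and -0.85 in replicate 2. Dkc1, which encodes the pseudouridine synthase of small nucleolar particles, fell to 1423 and 1232 normalised reads in shPHF2, against 6160.1 in shControl (log2 difference -2.22, standard error 0.19; limma, adjusted p = 0.0036). Rrp12 and Mrto4, assembly factors of ribosomal subunits, fell too, with log2 differences of -1.22 and -1.15. Of 35 genes of growth and metabolism, 16 fell and 0 rose (limma; 25 lower and 0 higher at an unadjusted p under 0.05, and 0 higher by edgeR and by DESeq2), with a median of -0.69. Shmt1 and Shmt2, serine hydroxymethyltransferases of the folate cycle, fell to 1050 and 1106, against 3429, and to 2091 and 1912, against 4861 in shControl. The glutamine transporter gene Slc1a5 fell to 538 and 433 normalised reads in shPHF2, against 1457 in shControl. Odc1, the classic MYC target that starts polyamine synthesis, had 4438 and 4691 normalised reads in shPHF2 and 5720 in shControl and did not pass (limma, adjusted p = 0.24).

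Of 19 cell cycle genes on the MYC-activated side, 11 fell and 1 rose (limma; 14 lower and 2 higher at an unadjusted p under 0.05, 11 lower and 1 higher by edgeR, 10 lower and 2 higher by DESeq2). Their median log2 difference was -0.81. The helicase subunit genes Mcm7 and Mcm5 fell, with log2 differences of -1.32 and -1.24, as did the mitotic cyclin gene Ccnb1, with -1.18. Id2, an inhibitor of helix-loop-helix factors, was the gene that rose by limma, to 3105 and 4017 normalised reads in shPHF2, against 955 in shControl (log2 difference 1.89, standard error 0.21; limma, adjusted p = 0.0047). The cyclin D gene Ccnd2, the other gene called higher by DESeq2 (adjusted p = 0.011), had 69149 and 100235 normalised reads in shPHF2 and 47583 in shControl and did not pass in limma. In the list of MYC-repressed genes, 4 of 14 rose and 0 fell (limma; 8 higher and 1 lower at an unadjusted p under 0.05, 0 lower by edgeR and by DESeq2), with a median of 0.86 that was 0.61 in replicate 1 and 1.01 in replicate 2. Ndrg4, a relative of the growth arrest gene Ndrg1, rose to 1463 and 2227 normalised reads in shPHF2, against 379 in shControl (log2 difference 2.25, standard error 0.27; limma, adjusted p = 0.0058). Whether MYC represses Ndrg4 itself was not tested. The growth arrest genes Gadd45a and Btg2 rose, with log2 differences of 1.33 and 1.25, as did Klf6, a growth-restraining zinc finger factor, with 0.79. The CDK inhibitor gene Cdkn1a, which MYC is known to hold down, had 9071 and 14043 normalised reads in shPHF2 and 6819 in shControl and did not pass in limma (adjusted p = 0.11), with an adjusted p of 0.039 by DESeq2. Of the 14 genes, 12 were above the control in both shPHF2 libraries and 2 below it, where 41.4% and 41.8% of all genes tested were. The 2 were Gas1, at 2965 and 3357 in shPHF2 against 4572 in shControl, and Thbs1, at 851 and 515 against 1067. Neither passed (limma, adjusted p = 0.084 and 0.17). These lists were put together with results of the same libraries known, so their directions are not independent evidence on MYC activity.

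**Figure D5:**
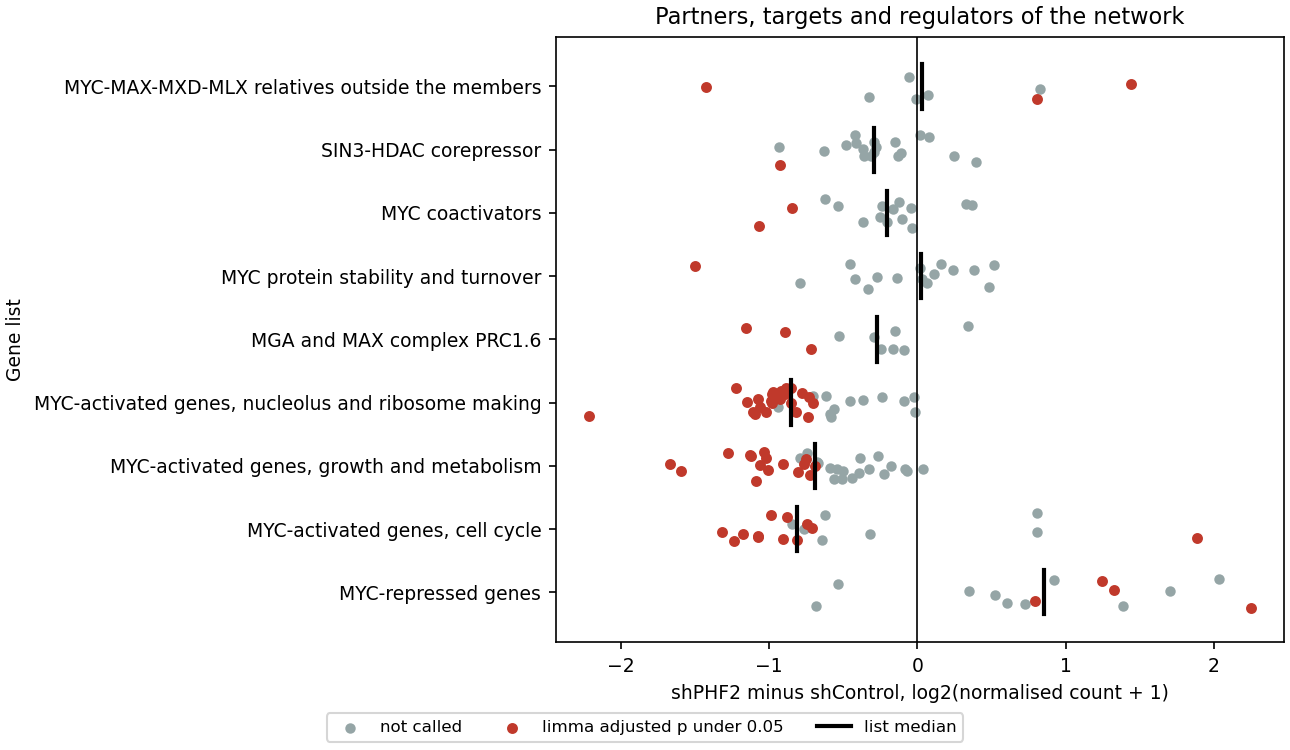
Differences between shPHF2 and shControl in log2(normalised count + 1), with 1 point per gene, for the 9 lists of network relatives, cofactors and targets. Red points passed limma at an adjusted p under 0.05, grey points did not, and black bars mark list medians, from -0.85 for nucleolar MYC-activated genes to 0.86 for MYC-repressed genes.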

How the data were processed

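Per the labels' protocols, total RNA of the neural stem cells was depleted of ribosomal RNA and sequenced with a strand-marking kit. Per the submitters' processing notes, HISAT2, HTSeq and DESeq2 were used on build mm10; the sources used here do not give versions, annotation or strand setting. The deposited table holds for each library a signal, read counts divided by a DESeq2 size factor by the authors, and log2 fold changes, also made by the authors, beside their standard errors. All values were whole multiples of the step of their column (100%, within 0.001), so whole reads were recovered for alternatives. No library column was unused (0). The 4 rows that name no gene, 61.4% to 61.5% of reads, were left out.

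limma 3.58.1 in R 4.3.3 was run on log2(value + 1) for 14148 genes with a mean of at least 10, two-sided, with Benjamini-Hochberg adjustment over all of them. On that scale the change of low genes is understated. Residual spread (1 degree of freedom) comes only from the shPHF2 pair, with 6.94 prior degrees added by limma, and shControl is assumed to vary like them. The series calls the shPHF2 libraries biological replicates. Alternatives used pseudocount 5, minimum mean 50 or none, no trend, quantile and TMM normalization, edgeR 4.0.16, DESeq2 1.42.0 and each shPHF2 library left out. The limma and edgeR fits, not that of DESeq2, were run on simulated data. There shControl was drawn with the same spread as shPHF2, so that assumption was not tested. Locations and exon lengths are from GENCODE M21 (GRCm38), promoters from RefSeq (GRCm38.p6). Members, 9 gene lists and markers were chosen with earlier results of these data known. Text names all members, up to 3 called genes per list and direction with a mean of at least 100, the 5 genes most like Mxd4, and others singled out after their values were seen (Sin3a, Sin3b, Fbxw7, Odc1, Mlxip, Klf6, Ccnd2, Cdkn1a, Gas1, Thbs1, marker, neighbouring and overlapping genes). Mycl, Sinhcaf and Cip2a were not found under these names.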

Additional observations from a re-analysis of the deposited data

How the results depend on the processing

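No filter on low values, no trend and quantile normalization each gave 0 calls in limma, among all genes and among the listed pathway genes, with 3893, 3300 and 3700 genes at an unadjusted p under 0.05; the cause was not tested. The other 5 alternatives called 1969 to 2321 genes and 65 to 70 pathway genes. Quantile normalization moved the median of the members to 0.22. Leaving out an shPHF2 library gave 0.10 to 0.19 for that median and 2.53 to 2.63 for Mxd4 above the other members, values with no test. The sign of Myc turned with quantile normalization (0.07), that of Mycn without replicate 1 (0.03) and that of Mlx without replicate 2 (-0.04). Mxd4 stayed between 2.59 and 2.64 and Mxd1 between 1.84 and 2.10 over 9 alternatives each. Counts without a library could not be tested, since no residual degree of freedom was left. No paired analysis was possible because shControl is 1 library with no replicate number in the labels.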

Other observations

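The E-box CACGTG was also counted in the promoters of the MYC-activated genes, in the 250 bases before the RefSeq start. It stood in 17 of 78 genes with a window, or 21.8%, against 9.75% of the 10280 tested genes that matched the promoter table and 6.86% of all 26994 genes in it. Among these 78, it stood in 8 of the 44 that fell in shPHF2 and in 9 of the 34 that did not pass as lower. These shares are a description of letters in the windows, with no test.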
